A study of Arabidopsis thaliana with 9 samples.

Results

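Alpha-expansins are small cell wall proteins that let plant walls yield to turgor, and 10 genes of this family in the Arabidopsis thaliana root are described here: EXPA1, EXPA4, EXPA5, EXPA6, EXPA7, EXPA8, EXPA10, EXPA14, EXPA17 and EXPA18. They were chosen by locus, and each was found as 1 probe set among the 21430 loci on the arrays. The samples were cells of the quiescent centre (QC), the group of slowly dividing cells inside the root stem cell niche, sorted as protoplasts by green fluorescence from a WOX5::erGFP reporter. All 3 groups, mock included, were plt1 plt2 double mutants carrying the same complementing PLT2::PLT2-GR construct, a fusion of the AP2-type transcription factor PLT2 to the glucocorticoid receptor that dexamethasone releases into the nucleus. At 5 days after germination the seedlings were placed on DMSO for 1 h (mock), on 10 µM dexamethasone for 1 h (1 h), or on 10 µM dexamethasone for 4 h (4 h), and each group had 3 arrays described as biological replicates. Mock was not incubated for 4 h, so time on the new plate and induction cannot be told apart at 4 h. An effect of dexamethasone on plants without the fusion protein was not measured. The number of independent transgenic lines is not stated in the labels used here.

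Expansins act without cutting the wall. They loosen the contacts between cellulose and the other wall polymers at the acid pH that plasma membrane proton pumps create, and the cell then enlarges. Root meristem cells are small, and growth by enlargement begins where they leave the meristem. PLT proteins are known to keep root cells in the dividing state and to delay that exit. In the root, members of the family are known from lateral root emergence (EXPA14 and EXPA17), from growing root hairs (EXPA7 and EXPA18) and from the transition between division and elongation (EXPA1).

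Levels are RMA values on a log2 scale, so a difference of 1 is a change of 2-fold. Across probe sets, levels serve only to mark dim genes and to form and weigh marker sums, not to compare the abundance of genes. A gene was called when limma's adjusted p was under 0.05 after Benjamini-Hochberg adjustment over all 21430 loci. Errors after ± are standard errors of the fitted log2 fold change unless marked SD. The number of arrays limits the precision. Replicate 1 at 4 h stood apart in its added poly-A control RNAs, whose log2 levels averaged 8.80 there, while the averages of the other 8 arrays were 6.16 to 6.66. It also lay farthest out on the first principal component, at 40.7, with replicates 2 and 3 at 4 h at 27.3 and 4.25, so values without it are given beside results at 4 h where it changed a call or moved a printed fold change by over 1.5 times, and for each alpha-expansin. PLT2 (AT1G51190) had mean log2 levels of 8.58 in mock, 8.92 at 1 h and 8.56 at 4 h, and limma called no difference between them. Its probe set may cover the fusion gene, the mutated gene or both. The reporter gene WOX5 was not among the loci analysed here, and the QC marker AGL42 (AT5G62165) had a mean log2 level of 2.88 at 4 h and 2.88 in mock, below the first quartile of every array (3.55 to 3.63). The QC regulator SCR (AT3G54220) was at 8.72 at 4 h and 8.55 in mock.

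At 4 h, 4 of the 10 alpha-expansins were lower than in mock: EXPA10, EXPA17, EXPA1 and EXPA8. Each stood at 0.359 to 0.475 of its mock level, and none of the 10 rose. Over all loci, 5.23% were called lower and 5.53% higher in this comparison. The same 4 genes had every 4 h array below every mock array, beside 13.4% of all loci. The median log2 fold change was -0.33 over the 10 genes, against 0.01 over all loci. At 1 h no alpha-expansin was called in either direction.

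**Figure D1:**
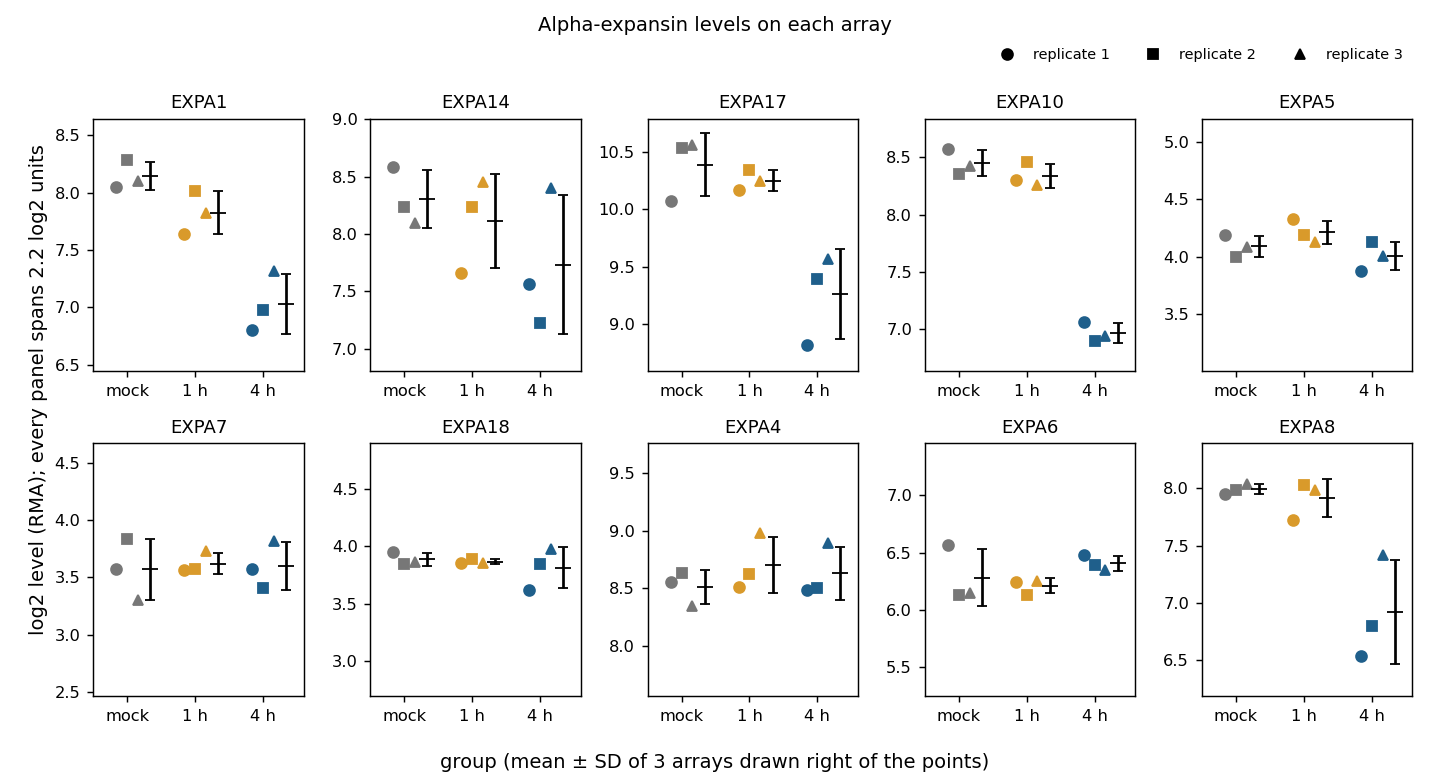
Log2 level (vertical axis) of each of the 10 alpha-expansins on every array, grouped as mock, 1 h and 4 h along the horizontal axis, with the mean ± SD of 3 arrays beside the points; each panel spans 2.2 log2 units. The 4 h points of EXPA1, EXPA17, EXPA10 and EXPA8 all lie below their mock and 1 h points, while those of EXPA14 are spread and those of the other 5 genes overlap mock.

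EXPA1 (AT1G69530) is known in the root from the transition zone, where the cytokinin response regulator ARR1 promotes its expression, and from the swelling of cells that start a lateral root. Its log2 levels were 8.05, 8.29 and 8.10 in mock, 7.64, 8.02 and 7.82 at 1 h, and 6.80, 6.98 and 7.31 at 4 h. The 3 groups did not overlap and ran downward from mock through 1 h to 4 h. At 4 h EXPA1 fell by 1.11 ± 0.14 against mock (adjusted p = 0.00246). Without replicate 1 at 4 h the log2 fold change was -0.998 ± 0.14 (adjusted p = 0.00815).

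EXPA17 (AT4G01630) is needed for timely lateral root formation and lies downstream of the auxin-induced factor LBD18. Its log2 levels were 10.08, 10.53 and 10.56 in mock, 10.17, 10.34 and 10.24 at 1 h, and 8.82, 9.39 and 9.57 at 4 h. Mock and 1 h overlapped, and every 4 h array lay below both. The fall at 4 h against mock was -1.13 ± 0.19 (adjusted p = 0.00737). It was smaller without replicate 1 at 4 h, the lowest of the 9 arrays for this gene, with a log2 fold change of -0.91 ± 0.15 (adjusted p = 0.0134).

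EXPA14 (AT5G56320), a second expansin downstream of LBD18 in lateral root emergence, gave the widest spread of the 10 genes at 4 h. Its log2 levels were 8.58, 8.24 and 8.10 in mock, 7.66, 8.23 and 8.45 at 1 h, and 7.57, 7.22 and 8.40 at 4 h. Replicates 1 and 2 at 4 h lay below every mock array, and replicate 3 lay inside the mock range. The log2 fold change at 4 h against mock was -0.57 ± 0.28 with an interval of -1.20 to 0.06 at 95% confidence, and limma made no call (adjusted p = 0.23). Its value depended on single arrays. It was -0.49 without replicate 1 at 4 h (adjusted p = 0.431), -0.32 without replicate 2 (adjusted p = 0.552) and -0.91 without replicate 3 (adjusted p = 0.0187), and only the last was called. A fall of the size seen for EXPA1 and EXPA17 is therefore within the interval for EXPA14, and so is no change.

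EXPA10 (AT1G26770) is best known as a growth gene of leaves and leaf stalks, and it showed the largest change of the 10 at 4 h, with the smallest standard error. Its log2 levels were 8.57, 8.35 and 8.43 in mock, 8.30, 8.46 and 8.26 at 1 h, and 7.07, 6.90 and 6.94 at 4 h. The 1 h arrays overlapped mock, and the 4 h arrays lay close together, more than 1 log2 unit below all others. At 4 h EXPA10 fell by 1.48 ± 0.09 against mock (adjusted p = 4.21e-05), to 0.359 of the mock level. Replicate 1 at 4 h was here the highest of its group, and without it the log2 fold change was -1.53 ± 0.10 (adjusted p = 0.000191).

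EXPA8 (AT2G40610) had log2 levels of 7.95, 7.99 and 8.04 in mock, 7.72, 8.03 and 7.98 at 1 h, and 6.54, 6.80 and 7.42 at 4 h. Its mock arrays were the tightest of the 10 genes, with an SD of 0.04, and its 4 h arrays were spread, with an SD of 0.45, but all lay below the rest. At 4 h it fell by 1.07 ± 0.19 against mock (adjusted p = 0.00847). The log2 fold change was -0.88 ± 0.17 without replicate 1 at 4 h (adjusted p = 0.0218) and -1.32 without replicate 3.

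**Figure D2:**
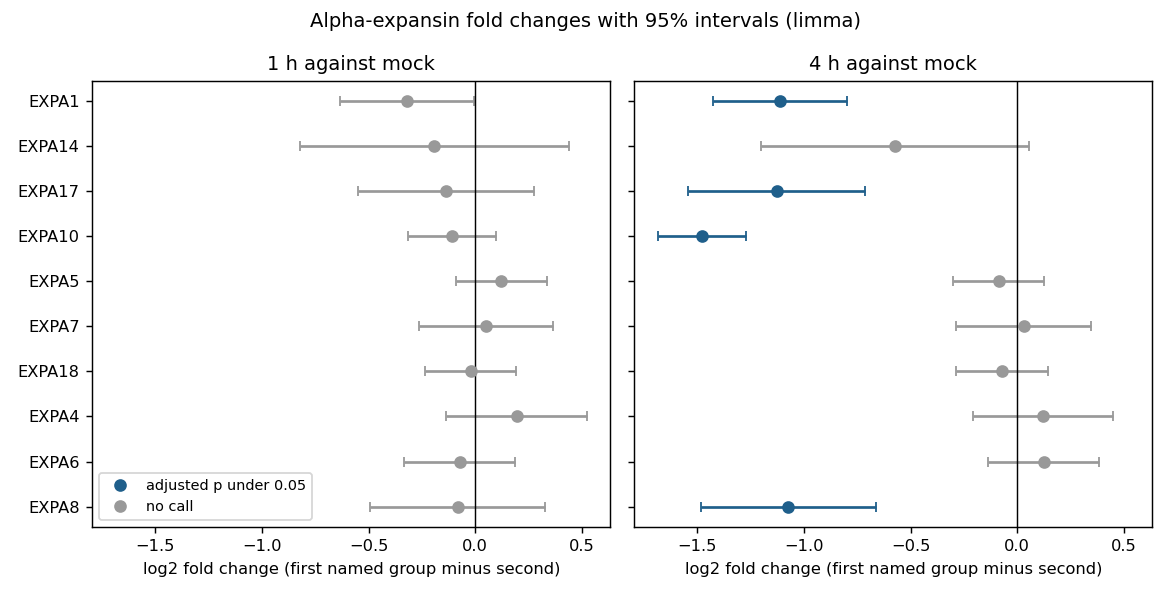
Log2 fold change against mock (horizontal axis) at 1 h (left) and 4 h (right) for the 10 alpha-expansins, as points with 95% intervals from limma. At 4 h the intervals of EXPA1, EXPA17, EXPA10 and EXPA8 lie wholly below -0.66, while EXPA14 reaches from -1.20 to 0.06 and the other 5 genes stay above -0.30.

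The other 5 alpha-expansins showed no call at 4 h. EXPA4 (AT2G39700) had log2 levels of 8.55, 8.63 and 8.34 in mock, 8.51, 8.62 and 8.98 at 1 h, and 8.49, 8.50 and 8.89 at 4 h. Its arrays overlapped in all groups, and its log2 fold change at 4 h against mock was 0.12 ± 0.15 (adjusted p = 0.669), with an interval of -0.21 to 0.45. EXPA6 (AT2G28950) had log2 levels of 6.57, 6.13 and 6.14 in mock, 6.24, 6.13 and 6.25 at 1 h, and 6.48, 6.39 and 6.35 at 4 h. Replicate 1 stood above the other mock arrays, and the 4 h arrays lay above every 1 h array (11.7% of all loci did so) but inside the mock range. The log2 fold change of EXPA6 at 4 h was 0.12 ± 0.12 against mock (interval -0.14 to 0.38) and 0.20 ± 0.12 against 1 h (adjusted p = 0.379), again with no call.

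EXPA5 (AT3G29030), an expansin known from brassinosteroid-dependent growth, had log2 levels of 4.19, 4.00 and 4.09 in mock, 4.33, 4.19 and 4.13 at 1 h, and 3.88, 4.13 and 4.01 at 4 h. The groups overlapped, and the log2 fold change at 4 h was -0.09 ± 0.10 against mock, with an interval of -0.30 to 0.13. The pair of root hair expansins was also dim. EXPA7 (AT1G12560) lay between 3.30 and 3.83 over the 9 arrays, around the first quartile of all loci, and EXPA18 (AT1G62980) between 3.62 and 3.98. Their log2 fold changes at 4 h against mock were 0.03 ± 0.14 for EXPA7 (interval -0.29 to 0.35) and -0.07 ± 0.10 for EXPA18 (interval -0.29 to 0.14). Without replicate 1 at 4 h the log2 fold changes against mock were 0.19 for EXPA4, 0.09 for EXPA6, -0.02 for EXPA5, 0.04 for EXPA7 and 0.03 for EXPA18, again with no call. Signal near background was not measured on these arrays, so a fall of a gene that is already dim may not be visible, and this holds for EXPA5, EXPA7 and EXPA18.

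The first hour showed no call in this family. The comparison at 1 h uses the same mock arrays as that at 4 h. Over all loci 0.187% were called at 1 h against mock. The log2 fold changes of the 10 genes ran from -0.32 for EXPA1 to 0.19 for EXPA4, with a median of -0.08, against -0.01 over all loci. EXPA1 was the 1 gene of the 10 whose 1 h arrays all lay below mock (5.40% of all loci had this pattern) and the 1 with an unadjusted p under 0.05. Its log2 fold change at 1 h was -0.32 ± 0.14 (adjusted p = 0.998). For EXPA10 the interval at 1 h was -0.32 to 0.10, for EXPA8 -0.49 to 0.33 and for EXPA17 -0.55 to 0.28, so at 1 h each excluded a change as large as its estimate at 4 h.

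Between the times, the same 4 genes were lower at 4 h than at 1 h, beside 0.966% of all loci, and their 4 h arrays lay below every 1 h array, beside 10.1% of all loci. The 2 comparisons at 4 h share their 4 h arrays, so the second is not independent of the first. EXPA10 fell by 1.37 ± 0.09 against 1 h (adjusted p = 0.000548), EXPA8 by 0.99 ± 0.19 (adjusted p = 0.0388), EXPA17 by 0.99 ± 0.19 (adjusted p = 0.0388) and EXPA1 by 0.79 ± 0.14 (adjusted p = 0.0349). For EXPA10 the call held without any 1 of the 9 arrays. For EXPA1, EXPA8 and EXPA17 it was lost without any 1 array other than replicate 3 at 4 h. Without replicate 1 at 4 h their adjusted p-values were 0.0887, 0.0896 and 0.0737, at log2 fold changes of -0.68, -0.80 and -0.77.

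**Figure D3:**
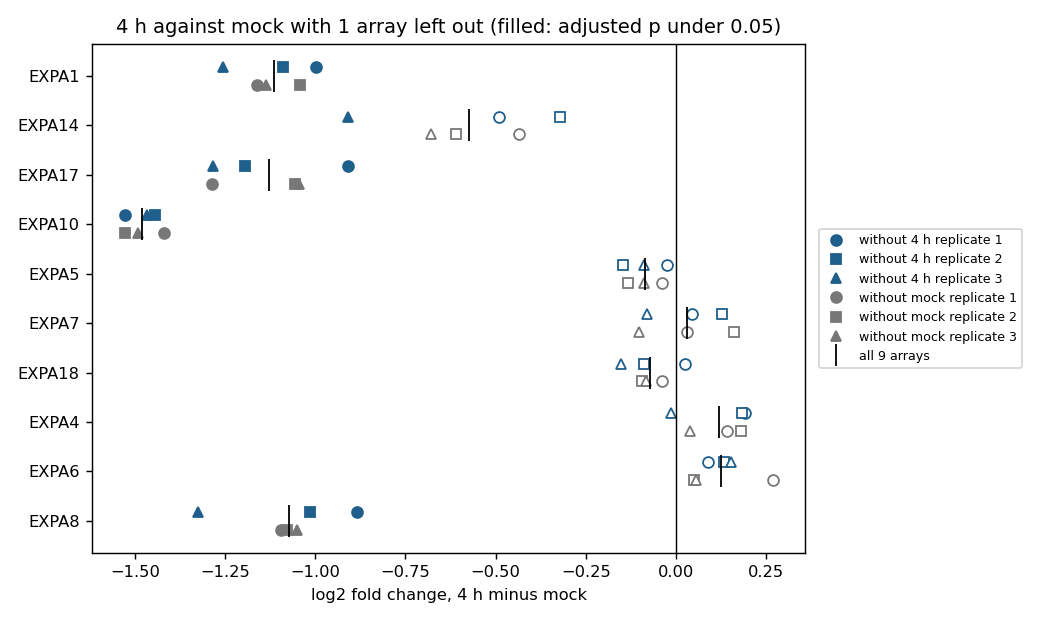
Log2 fold change of 4 h minus mock (horizontal axis) for each alpha-expansin with all 9 arrays (vertical bar) and with 1 array of the 4 h or mock group left out (symbols; filled where the adjusted p was under 0.05). All symbols are filled for EXPA1, EXPA17, EXPA10 and EXPA8, and for EXPA14 only the one without replicate 3 at 4 h is.

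The 4 falls against mock were called without any 1 of the 9 arrays. The highest adjusted p over these 9 fits was 0.00076 for EXPA10, 0.0183 for EXPA1, 0.0419 for EXPA17 and 0.0424 for EXPA8. Which array was extreme at 4 h differed by gene. Replicate 3, the 4 h array nearest to mock on the first principal component, had the highest level of its group for EXPA1, EXPA8, EXPA14 and EXPA17. Relative to the mock mean it stood at -0.83 for EXPA1, -0.57 for EXPA8, 0.10 for EXPA14 and -0.82 for EXPA17. For EXPA10 it stood at -1.51, between replicates 1 (-1.38) and 2 (-1.55).

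The genes whose profile over the 9 arrays came closest to each called expansin were found by the root mean square difference of log2 values, after subtracting each gene's mean. For EXPA10 these were ARF19 (AT1G19220), an auxin response factor, at 0.18 log2 units, the cell cycle inhibitor gene SIM (AT5G04470) at 0.20 and AT5G05900 at 0.21. For EXPA1 they were AT4G18340 at 0.07, the homeobox gene HB-3 (AT5G15150) at 0.11 and AT1G09750 at 0.11. EXPA8 came closest to the glycosyltransferase gene UGT76B1 (AT3G11340) at 0.09, DGR2 (AT5G25460) at 0.10 and AT4G17280 at 0.10. EXPA17 came closest to AT4G34630 at 0.12, MUM4 (AT1G53500) at 0.14 and MUM2 (AT5G63800) at 0.16. The MUM genes are known for making and modifying the pectin of seed mucilage. Each expansin was picked for its fall at 4 h on these same arrays, so its nearest loci share that fall by construction. The lists are a description only, and a link between these genes and the expansins was not tested.

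Other wall genes were measured on the same arrays. Over all loci 5.23% were called lower and 5.53% higher at 4 h against mock. A single call in a list of 8 or 11 genes is close to those shares and is not read as a result about the list. Of 11 other alpha-expansins, EXPA11 (AT1G20190) fell at 4 h by 1.37 ± 0.25 against mock (adjusted p = 0.00938), 0 rose and 10 did not pass, with a median of -0.10. EXPA9 (AT5G02260) was at -0.38 ± 0.13 (adjusted p = 0.078), with all 4 h arrays below mock, and at -0.24 without replicate 1 at 4 h (adjusted p = 0.192). Over the whole family, which includes the 10 genes above, 5 of 21 measured alpha-expansins fell and 0 rose. The same counts were found without replicate 1 at 4 h. Of all 21430 loci, 1120 fell with all arrays and 514 without that array. Of 8 beta-expansins and expansin-like genes, EXLA2 (AT4G38400) rose by 0.50 ± 0.10 (adjusted p = 0.0143) and 7 did not pass, among them EXPB1 (AT2G20750) at -0.66 ± 0.28, or -0.35 without replicate 1 at 4 h (adjusted p = 0.436). EXLA2 was also called higher at 4 h than at 1 h, by 0.58 ± 0.10 (adjusted p = 0.0348), a call that was lost without replicate 1 at 4 h (adjusted p = 0.0866).

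Of 11 plasma membrane proton pumps, which acidify the wall, 10 did not pass at 4 h, with a median of 0.02 over the list. AHA2 (AT4G30190), a major pump of the root, fell by 0.49 ± 0.12 (adjusted p = 0.0258), beside 5.23% of all loci called lower. AHA1 (AT2G18960) was at -0.39 ± 0.13 (adjusted p = 0.082), and at -0.22 without replicate 1 at 4 h (adjusted p = 0.163). Without replicate 1 at 4 h the adjusted p of AHA2 was 0.0724, so no pump was called. Genes of cellulose synthesis in growing walls were lower as well: 5 of 6 fell, 0 rose and 1 did not pass, with a median of -0.56. The cellulose synthase gene CESA1 (AT4G32410) fell by 0.52 ± 0.11, CESA3 (AT5G05170) by 0.64 ± 0.14, CESA6 (AT5G64740) by 0.47 ± 0.12, the wall orientation gene COB (AT5G60920) by 0.58 ± 0.12 and CSI1 (AT2G22125), which links cellulose synthases to microtubules, by 0.62 ± 0.16. KOR1 (AT5G49720), a cellulase needed for cellulose synthesis, was at -0.53 ± 0.17 (adjusted p = 0.0683), and at -0.30 without replicate 1 at 4 h (adjusted p = 0.0975). Without replicate 1 at 4 h, 3 of the 6 were called. CESA6, then at -0.34 (adjusted p = 0.068), and CSI1, then at -0.43 (adjusted p = 0.0819), lost their calls.

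**Figure D4:**
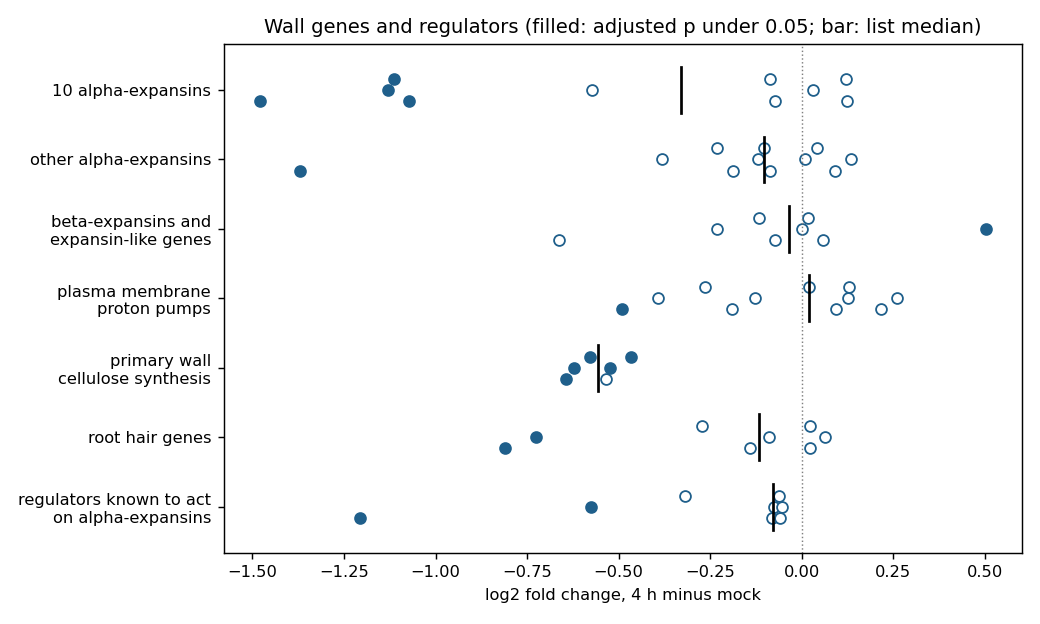
Log2 fold change of 4 h minus mock (horizontal axis) for the genes of 7 lists, 1 point a gene, filled where the adjusted p was under 0.05, with the list median as a bar. The 10 alpha-expansins split into 4 filled points from -1.48 to -1.07, EXPA14 at -0.57, and 5 between -0.09 and 0.12; the cellulose synthesis genes lie together between -0.64 and -0.47.

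Of 8 regulators known to act on alpha-expansin genes or just upstream of them, ARF19 fell at 4 h by 1.21 ± 0.08 (adjusted p = 5.37e-05) and ARR1 (AT3G16857) by 0.58 ± 0.15 (adjusted p = 0.0341), while 6 did not pass. Over all loci 5.23% were called lower. ARF19 kept its call without replicate 1 at 4 h and ARR1 did not (adjusted p = 0.0826). ARF7 (AT5G20730), which acts with ARF19 upstream of LBD genes in lateral root formation, was at -0.06 ± 0.09, and at -0.0073 without replicate 1 at 4 h. LBD18 (AT2G45420) was dim, with mean log2 levels of 3.31 at 4 h and 3.36 in mock. Of 8 root hair genes, RHD6 (AT1G66470), a regulator of hair initiation, fell by 0.81 ± 0.16 (adjusted p = 0.0143) and RHD2 (AT5G51060), an NADPH oxidase of growing hairs, by 0.72 ± 0.20 (adjusted p = 0.0434), and 6 did not pass. RHD6 kept its call without replicate 1 at 4 h (adjusted p = 0.0493) and RHD2, at -0.48, did not (adjusted p = 0.0916). In these 6 lists limma called 0 genes at 1 h, and 0 had an unadjusted p under 0.05 there.

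Some markers of other root cell types were also lower at 4 h, though few were called. In sorted cells measured in bulk, fewer cells of a type and less RNA per cell cannot be told apart. The summed level of 6 root cap markers was 11.43 to 11.76 (log2) at 4 h, against 11.77 to 12.14 in mock, and that of 9 cortex and endodermis markers was 7.50 to 7.81 at 4 h, against 7.92 to 8.30 in mock. For 9 vascular markers the range was 8.91 to 9.09 at 4 h and 9.13 to 9.33 in mock. These 3 sets of ranges did not overlap, whereas 5 epidermis markers (8.74 to 9.09 at 4 h, 8.95 to 9.09 in mock) and 6 QC and stem cell niche markers (10.55 to 10.77 at 4 h, 10.66 to 10.73 in mock) overlapped. Among all loci taken singly, 13.4% had every 4 h array below every mock array, and no such share was counted for sums. The sums were taken on the unlogged scale, so probe sets with high values weigh most. In the root cap this was AT1G65570, at 11.55 in mock and changed by -0.41 ± 0.13 at 4 h (adjusted p = 0.072). Among vascular markers XCP1, LHW and AHK4 had the highest values in mock (7.44, 7.41 and 7.40). LHW and AHK4 were at -0.05 and -0.02 at 4 h, or -0.15 and -0.00087 without replicate 1 at 4 h. At 4 h limma called 1 of 9 cortex and endodermis markers lower (ESB1 by 0.52 ± 0.14), 3 of 9 vascular markers lower (XCP1 by 0.69 ± 0.15, TMO5 by 0.52 ± 0.11 and ACL5 by 0.47 ± 0.13), 0 of 6 root cap markers lower and 1 higher (FEZ by 0.97 ± 0.24), and 0 of 5 epidermis and 0 of 6 niche markers in either direction. Over all loci 5.23% were called lower and 5.53% higher. An unadjusted p under 0.05 was found for 5 root cap markers, FEZ among them, for 4 cortex and endodermis, 3 vascular, 1 epidermis and 1 niche marker. The share of all loci under this unadjusted threshold was not counted, so these counts have no background beside them. The smallest p-values among the uncalled lists were those of MYB23 (-0.40 ± 0.13) and GL2 (-0.27 ± 0.17, or -0.09 without replicate 1 at 4 h) of the epidermis, and of PLT3 (-0.20 ± 0.08) and SCR (0.17 ± 0.09) of the niche. Without replicate 1 at 4 h, TMO5 was the 1 marker still called. The adjusted p was then 0.119 for ESB1, 0.0562 for XCP1, 0.134 for ACL5 and 0.0836 for FEZ. The median log2 fold changes were -0.38 for root cap, -0.20 for cortex and endodermis, -0.16 for epidermis, -0.05 for vascular and 0.05 for niche markers. The vascular markers VND6 and VND7 lay below the first quartile in mock, at 2.94 and 2.91. The part of these markers in the falls of the alpha-expansins was not tested.

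**Figure D5:**
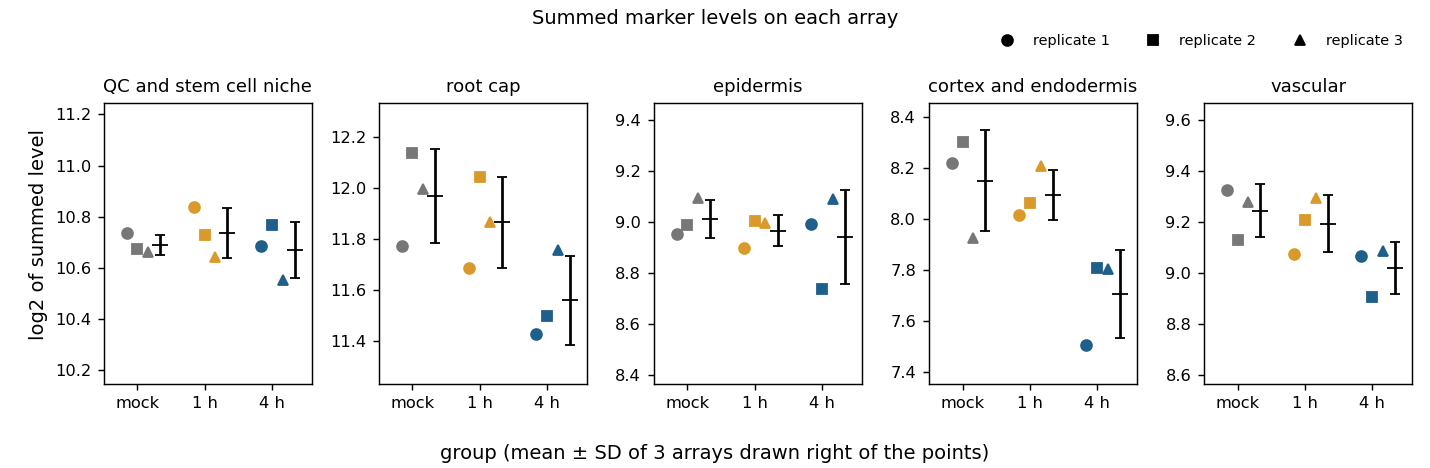
Log2 of the summed level (vertical axis) of 5 marker lists on every array, by group along the horizontal axis, with the mean ± SD of 3 arrays beside the points; each panel spans 1.1 log2 units. The 4 h arrays lie below all mock arrays for root cap, cortex and endodermis, and vascular markers, and overlap mock for QC and stem cell niche and epidermis markers.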

How the data were processed

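The authors deposited log2 expression values. RMA and limma 3.24.15 are the tools listed for them, per the submitters' processing notes. Neither array type, probe set definition nor build is stated, so probes shared between close expansin paralogs cannot be recognised. The table had 21494 probe sets, of which 64 controls were left out. Symbols of the listed genes were set together with the lists. Those of other loci came from the TAIR10.1 RefSeq gene table, which matched 21231 of 21430 loci. No coordinates or sequences were used. The deposited values were used with no further normalization or filter. One limma 3.58.1 model (R 4.3.3) was fitted to all 9 arrays, tested two-sided with 3 contrasts, and checked on simulated data. Members, lists and tests were chosen with earlier results of these data known. All 10 members were named, and of each other list the called members (up to 6, by smallest p) or, with none called, the 2 with the smallest p. EXPA9, EXPB1, AHA1, KOR1, ARF7, LBD18, AGL42, VND6, VND7, AT1G65570, LHW and AHK4 were named after their values were seen. Nothing states that replicates came from separate plantings, so p-values measure the spread between these arrays. Alternatives were a replicate block, leaving out each array, array weights, eBayes with a trend and robust estimation, fits to only the 2 groups compared, leaving out dim loci (below the 40th percentile), centring each array on its median, and quantile normalization.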

Additional observations from a re-analysis of the deposited data

Results flagged for a closer look

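For 4 alpha-expansins the change at 4 h differed from that at 1 h by a test of the difference itself, the limma contrast of 4 h against 1 h. EXPA10 differed by -1.37 log2 units, EXPA8 by -0.99, EXPA17 by -0.99 and EXPA1 by -0.79. With each of the 9 arrays left out in turn, EXPA10 was called in 9 of 9 fits, and EXPA1, EXPA8 and EXPA17 in 1 of 9.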

How the results depend on the processing

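Against mock at 4 h, 4 alpha-expansins fell in every alternative except the fit without replicate 3 at 4 h, where EXPA14 joined them (4 to 5 without single arrays), and 0 rose. At 1 h the count stayed at 0. Between 4 h and 1 h, 4 fell, but 1 (EXPA10) with only the 2 groups compared and 1 to 4 without single arrays; the cause was not tested. Over all loci at 4 h against mock, 1185 rose and 1120 fell, against 597 and 470 with only the 2 groups compared, and 423 to 1912 and 265 to 2241 without single arrays. At 1 h, 38 rose and 2 fell, against 73 and 6 with array weights, 63 rises with only the 2 groups compared, 1 fall with trend and robust eBayes, and 6 to 59 rises and 0 to 6 falls without single arrays. Between the times, 190 rose and 207 fell, against 700 and 999 with array weights, 1 and 3 with only the 2 groups compared, and 1 to 1202 and 2 to 1606 without single arrays.

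Uncalled log2 fold changes that changed sign did so only without single arrays. At 4 h against mock these ranged from -0.013 to 0.19 for EXPA4, -0.10 to 0.16 for EXPA7 and -0.15 to 0.026 for EXPA18. At 1 h they ranged from -0.15 to 0.072 for EXPA6, -0.083 to 0.18 for EXPA7, -0.14 to 0.012 for EXPA8, -0.36 to 0.035 for EXPA14 and -0.044 to 0.011 for EXPA18. Between the times they ranged from -0.21 to 0.065 for EXPA4, -0.13 to 0.076 for EXPA7 and -0.13 to 0.048 for EXPA18. The filter on dim loci removed EXPA5, EXPA7 and EXPA18.

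Deviations of same-numbered arrays from their group means correlated at -0.13 to 0.27. Of 9 arrays, 0 correlated best with their own number in both other groups. With 3 arrays a group this check cannot show whether same-numbered samples shared a planting or a batch, and the labels do not state it. With the replicate number as a block, 4 alpha-expansins fell at 4 h against mock and 4 against 1 h, and over all loci 1160 rose and 1180 fell at 4 h against mock.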
